A study of Mus musculus with 8 samples.

Results

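Control peritoneal macrophages given bacterial lipopolysaccharide (LPS) for 6 h, at 50 ng/mL, were compared with untreated ones. The comparison uses 4 of the study's 8 libraries: WT untreated A and B, and WT with LPS A and B. They were picked by their labels, with earlier results of these data known. All 8 libraries come from peritoneal macrophages of C57BL/6J mice that were 8 weeks old. The animals labelled WT are MED1 fl/fl, so both alleles of the gene for the Mediator subunit MED1 carry loxP sites, and the controls are thus floxed mice and not unmodified ones. The other 4 libraries come from macrophage MED1 knockout mice (KO), untreated or with the same LPS, and serve here for the estimate of spread and for a test of whether the response differed. Which Cre driver made the knockout, how the cells were collected and cultured, and whether animals were pooled is not stated in the sources used here. Nothing there says that A and B are separate animals, so p-values measure the spread between these libraries, which may be technical.

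LPS is held by the co-receptor CD14 and recognised by TLR4 with its partner MD-2. The receptor signals through the adaptor MyD88 to NF-kB and AP-1, which switch on cytokine and chemokine genes, and through the adaptor TRIF to IRF3, which switches on interferon beta. Secreted interferon then acts back on the cell through its own receptor. Macrophages of the peritoneal cavity are mostly a long-lived resident type that depends on the transcription factor GATA6 and takes up dead cells and lipids.

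Expression is given in RPKM, the reads on a transcript scaled to its length in kilobases and to the library's mapped reads. Changes are log2 differences of RPKM + 1, so that the change of a gene with low values is understated. A locus is called where limma's test over all 8 libraries gave a Benjamini-Hochberg adjusted p under 0.05. Estimated depth was 6.84 to 11 M reads in the 4 libraries, and 10192 to 10745 loci reached 1 RPKM, with WT LPS B lowest in both. The macrophage marker Emr1, the gene for F4/80, was at 409 and 396 RPKM untreated and at 450 and 424 with LPS (A and B). Itgam, the gene for CD11b, was at 680, 567, 615 and 703 in the same order. Of the 10 macrophage markers on the list 7 had a negative change and 3 a positive one, only Cd14 was called, and their summed level went from 32020 and 35670 untreated to 21250 and 18640 with LPS, most of it Lyz2 (28590 and 32320 against 17330 and 13230). Transcripts of peritoneal B cells were present in all 4 libraries, with 10 of 10 B cell markers measured, a summed level of 591 to 652 RPKM untreated and of 428 to 633 with LPS, and 0 called in limma, also at an unadjusted p under 0.05. Mast cell genes differed between libraries: without Hdc, 8 markers summed to 1.44 RPKM in untreated A, 75.8 in untreated B, 26.1 in LPS A and 89.7 in LPS B. Untreated B also held haemoglobin transcripts, with Hbb-b1 at 45.9 RPKM and at 0 in the other 3 libraries. In these bulk libraries, fewer cells of a type and less RNA per cell cannot be told apart.

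LPS changed the expression of 711 of 11272 loci in WT, with 357 called higher (3.17%) and 354 called lower (3.14%). At an unadjusted p under 0.05 there were 3300. In each of the 711 the LPS libraries lay apart from the untreated ones and both letters moved the same way. Among all loci, 18.2% had both LPS libraries above both untreated ones and 45.9% had both below, and the median log2 change was -0.25. Rises were larger than falls at the top of the range: 71 called rises and 21 called falls reached a log2 change of 3, and 15 against 2 reached 5. On this scale a fall cannot exceed the log2 of the untreated RPKM + 1, while a rise has no such limit. In 49 of the called falls the LPS mean was under 1 RPKM. In 62 of the called rises the untreated mean was under 1 RPKM, so the transcripts were near absent at rest, and in 171 it was at least 10 RPKM.

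**Figure D1:**
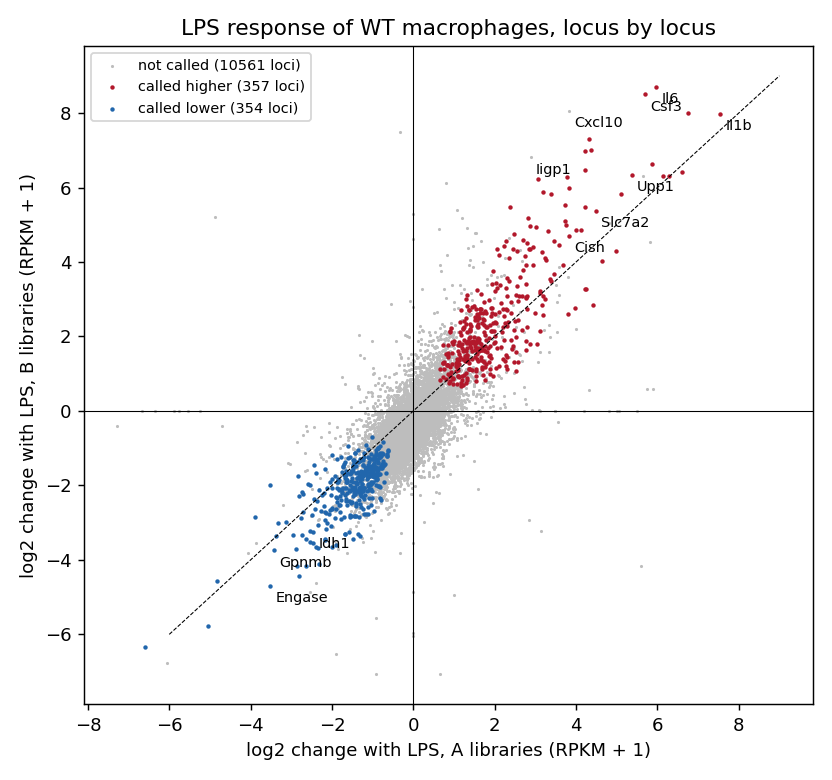
Log2 change with LPS (RPKM + 1) in the A libraries (x axis) against that in the B libraries (y axis), 1 point for each of 11272 loci, with the 357 loci called higher in red, the 354 called lower in blue and the dashed line marking equal change. Called loci lie in the upper right and lower left quadrants, and Cxcl10 and Iigp1, not called, stand far above the line.

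Changes were larger between the B libraries than between the A libraries. With 1 untreated and 1 LPS library per letter, a stronger response and a difference between single libraries cannot be told apart. The standard deviation of the changes over loci was 1.03 in B and 0.782 in A, and 556 of the 711 called loci had the larger change in B. The median of all loci was -0.41 in B and -0.08 in A. The number of calls rested on single libraries. Without WT untreated A, 6 loci were called higher and 3 lower. The numbers were 25 and 8 without WT LPS B, 62 and 22 without WT untreated B, and 525 and 1717 without WT LPS A. Leaving out KO LPS A or KO LPS B gave 225 and 154 each. Fitted to the 4 WT libraries alone, the numbers were 90 and 40, and with the letter as a replicate block 644 and 1174. In all 8 fits that leave out 1 library, 5 rises and 3 falls kept their call. The rises were Upp1, Cish, Cdc42ep2, Gja1 and Sdc4, and the falls were the small RNA loci Mir5133, Mir3473e and Snora33. Mir5133 was at 96.5 and 80.7 RPKM in WT untreated, and Mir3473e at 27.4 and 22.9. Both were at 0 in the WT LPS libraries and in all KO libraries, so those groups had no spread between libraries.

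Upp1, which encodes uridine phosphorylase (mm9 chromosome 11, 9018106 to 9036173, plus strand), was at 1.97 and 1.73 RPKM untreated and at 122 and 220 with LPS. The rise of 5.85 (SE 0.29, adjusted p = 0.000298) left both LPS libraries far above both untreated ones. Cish, an inhibitor of cytokine receptor signalling (chromosome 9, 107198357 to 107205115, plus strand), was at 1.49 and 1.51 and at 34.4 and 64.2, a rise of 4.27 (SE 0.29, adjusted p = 0.00237). Cdc42ep2, an effector of the small GTPase Cdc42 that shapes the actin cytoskeleton, was at 5.48 and 8.56 and at 57.0 and 67.2. The heparan sulfate proteoglycan Sdc4 was at 25.7 and 16.6 and at 250 and 302, and Gja1, which encodes the gap junction protein connexin 43, at 0.752 and 0.569 and at 29.4 and 44.9. For these 5 genes the gap between the groups was wide against the difference between A and B within each group.

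The receptor side of the response moved both ways. Tlr4, the LPS receptor, was at 45.6 and 43.9 RPKM untreated and at 97.0 and 101 with LPS, a rise of 1.13 (SE 0.23, adjusted p = 0.0334). Cd14 rose by 2.75 (382 and 354 against 1666 and 3677) and the adaptor Myd88 by 1.11 (55.1 and 45.5 against 107 and 112). Cd180, a TLR4-like receptor that restrains LPS signalling, fell: it was at 108 and 96.7 untreated and at 26.4 and 14.6 with LPS, a change of -2.32 (SE 0.36, adjusted p = 0.0205). The TLR4 partner Ly96 (MD-2) was at 48.4 and 45.7 and at 37.9 and 28.2, which did not pass (-0.51, adjusted p = 0.148). Of 20 genes of LPS recognition and TIR adaptors, 4 rose and 1 fell, with a median of 0.07; the fourth rise was Irak2. The kinase inhibitor Irak3 went from 19.8 and 50.1 to 125 and 146, with an adjusted p of 0.0526, and of 0.00761 with the letter as a replicate block.

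Tlr13, a sensor of bacterial ribosomal RNA, was at 166 and 174 RPKM untreated and at 60.1 and 23.9 with LPS, a fall of 2.13 on the log2 scale (SE 0.40, adjusted p = 0.0276). Tlr7 (264 and 301 against 168 and 67.0) and Tlr8 (89.3 and 117 against 56.4 and 18) passed only with the replicate block. Tlr2, the receptor for bacterial lipoproteins at the cell surface, was higher, at 113 and 241 against 489 and 459, and also passed only with the block. Of 9 other Toll-like receptor genes, 0 rose and 1 fell. Cytosolic sensors had 5 of 18 called higher and 0 lower, with a median of 0.51. Nlrp3, the sensor of the inflammasome that matures interleukin-1 beta, was at 12.1 and 15.2 and at 143 and 381, a rise of 4 (SE 0.44, adjusted p = 0.0099). The peptidoglycan sensor Nod2 (2.02 and 3.03 against 16.0 and 20.3) and the inflammasome product Il18 (11.7 and 18.4 against 35.5 and 59.4) rose too, while the inflammasome adaptor Pycard had a change of -1.72 (47.4 and 53.6 against 25.7 and 8.16; adjusted p = 0.0809, passing with the block).

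Among transcription factors, NF-kB genes lay higher as a group. In 15 of 16 NF-kB and IkB genes both LPS libraries were above both untreated ones, with a median of 0.87, though only 3 were called (8 with the replicate block). These were Nfkb1, the precursor of p50 (46.0 and 61.1 against 192 and 319), Nfkb2 (36.5 and 50.9 against 113 and 202) and the inhibitor Nfkbia (69.3 and 89.2 against 239 and 372). Of 19 AP-1, ATF and immediate early genes, 3 rose, Maff by 2.74, Ier3 by 2.16 and Fosl2 by 1.63, and 0 fell. The hypoxia factor Hif1a rose by 1.92 (49.3 and 53.0 against 182 and 210), and Jak2, the kinase of many cytokine receptors, by 2.76 (21.5 and 32.3 against 156 and 219). Tfeb, the activator of lysosomal genes, fell by 1.70 on the log2 scale: it was at 19.5 and 20.8 untreated and at 7.73 and 3.89 with LPS (SE 0.29, adjusted p = 0.0236). Its relative Tfec rose by 1.81 (21.4 and 45.4 against 106 and 118). Of 24 nuclear receptors and partners 0 were called in either direction in limma, and 2 higher and 1 lower with the block. At an unadjusted p under 0.05, 4 were higher and 5 lower. Pparg, the lipid-sensing receptor, had -1.23 (4.58 and 1.21 against 0.593 and 0.397; adjusted p = 0.213).

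Cytokine genes gave the largest rises. All 15 measured members of the interleukin-1, interleukin-6 and interleukin-12 families had both LPS libraries above both untreated ones, and 10 were called (13 with the replicate block), with a median of 3.16 and medians of 2.37 to 4.27 when 1 WT library was left out. Il1b was at 13.5 and 44.9 RPKM untreated and at 2693 and 11510 with LPS, a rise of 7.76 (SE 0.81). Il6, the inducer of the acute phase, was at 0.704 and 4.12 and at 106 and 2144 (7.34, SE 1.37), and LPS B lay far above LPS A. Further members of the interleukin-1 family that rose were Il1f9 (9.49 and 13.2 against 71.2 and 120), Il1f6 (0.152 and 0 against 7.09 and 35.5) and the alarmin Il33 (0.134 and 0.112 against 1.97 and 4). The interleukin-12 subunits Il12a (0.485 and 1.14 against 10.5 and 31.6) and Il12b (0 and 0.149 against 8.05 and 66.7) rose, and Il27 and Ebi3 passed only with the block. Tnf was at 16.0 and 27.8 and at 115 and 436, a rise of 3.35 (SE 0.70, adjusted p = 0.037).

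Not every cytokine gene went up. The locus that the table lists as Tnfsf12 and Tnfsf13, genes of the TNF superfamily ligands TWEAK and APRIL, fell from 133 and 83.7 RPKM to 19.2 and 7.46, a change of -3.02 (adjusted p = 0.035). Igf1, a growth factor made by resident macrophages, fell by 1.87 on the log2 scale (133 and 117 against 41.5 and 26.9). Il10, the main anti-inflammatory interleukin, was at 4.05 and 1.10 untreated and at 1.56 and 3.22 with LPS, so the groups overlapped (0.01, SE 0.49, adjusted p = 0.991). Of 19 colony-stimulating factors and other cytokines, 6 rose and 1 fell. The rises included Csf3 (0 and 1.5 against 50.5 and 905), Csf2 (0.125 and 0.732 against 19.9 and 216), the activin subunit Inhba (0.705 and 2.16 against 57.3 and 177) and the epidermal growth factor family members Ereg (0 and 0.552 against 7.14 and 46.8) and Areg (0.417 and 0.261 against 6.4 and 55.1).

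Chemokine genes that draw in neutrophils, and several that draw in other leukocytes, rose. Cxcl3 (chromosome 5, 91215129 to 91217112, plus strand) was at 21.5 and 109 RPKM untreated and at 1770 and 8741 with LPS, Cxcl2 at 54.2 and 75.7 and at 780 and 4862, and Cxcl1 at 27.7 and 48.4 and at 538 and 4416. These 3 were the called members among 12 CXC chemokines (6 with the replicate block). Of 12 CC chemokines 4 were called, Ccl5 (2.21 and 15 against 312 and 1379), Ccl4 (57.4 and 27.1 against 608 and 1595), Ccl7 (5.74 and 2.91 against 36.6 and 105) and Ccl3 (59.0 and 74.4 against 459 and 1588), and 6 with the block. Ccl2, the monocyte attractant, had 3.47 (16.5 and 7.19 against 106 and 164; adjusted p = 0.057, passing with the block). Pf4 was abundant throughout, at 697 and 2611 and at 1140 and 3468, without a separation of the groups. On the receiving side, the formyl peptide receptors Fpr1 (34.8 and 146 against 414 and 641) and Fpr2 (25.7 and 148 against 426 and 680) passed only with the block, and the chemokine receptor Cxcr4 fell (220 and 155 against 61.7 and 34.8; -1.97, adjusted p = 0.0301).

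**Figure D2:**
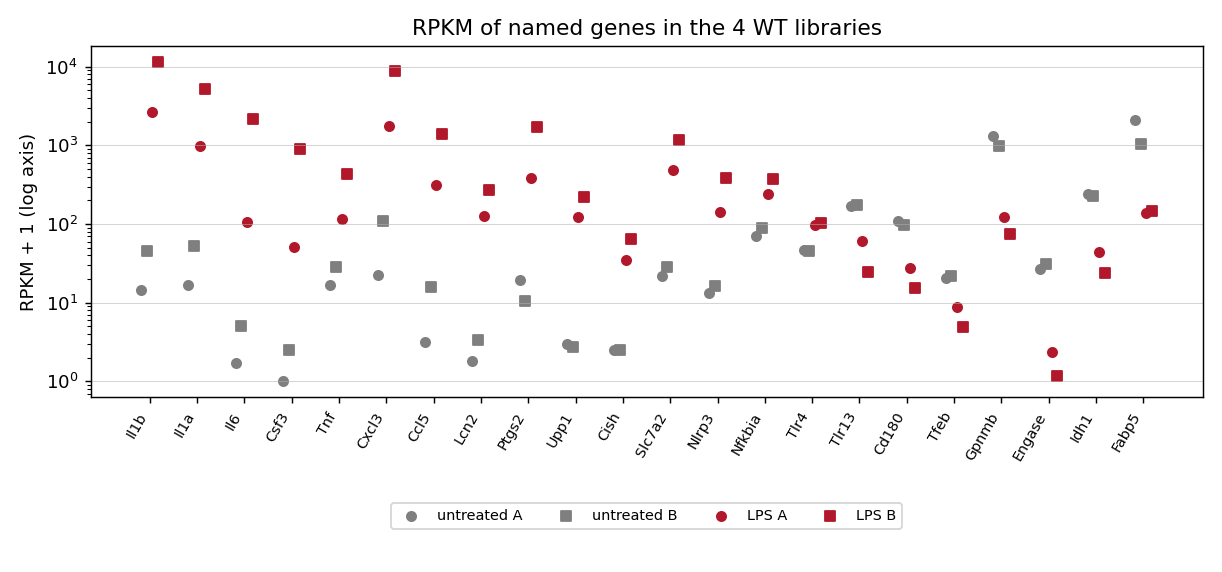
RPKM + 1 on a log axis for 22 named genes in each of the 4 WT libraries, untreated in grey and LPS in red, circles for A and squares for B. From Il1b to Tlr4 both red points lie above both grey ones, with the widest gap between LPS A and LPS B for Il6 and Csf3, and from Tlr13 to Fabp5 both lie below.

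The sequences just upstream of genes with these changes are shown because factors of this response are known to bind such sites. RefSeq windows on GRCm38.p6, from 250 bases before to 50 after a gene's start, were found for 9012 genes among the loci tested, 276 of those called higher and 268 of those called lower. They were searched on both strands for the NF-kB site, by its name, for the interferon-stimulated response element GAAANNGAAA, for the AP-1 site TGANTCA and for the cyclic AMP response element TGACGTCA. The CLEAR element of lysosomal genes, TCACGTGA, was added after the values were seen. The letters of these motifs can overlap one another. The NF-kB letters were in 17.8% of 360 windows of genes called higher, 7.61% of 355 windows of genes called lower and 10.4% of 11457 windows of all genes tested. For the interferon element the shares were 8.06%, 2.82% and 3.15%, for the AP-1 site 13.6%, 6.76% and 5.23%, for the cyclic AMP element 3.33%, 0.282% and 3.07%, and for the CLEAR element 1.67%, 3.38% and 1.93%. Among the 49 windows of type I interferon response genes 36.7% held the interferon element, and among the 45 of V-ATPase and lysosomal genes 15.6% held the CLEAR element. A match is a description of letters and was not tested as a binding site.

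Upstream of 5 genes that rose, the 150 bases before the start hold the NF-kB letters, given in capitals, 5′ to 3′ on the strand of the gene. They are Cxcl1 (chr5:90891095-90891244, plus strand), Cxcl2 (chr5:90903749-90903898, plus strand), Cxcl3 (chr5:90785951-90786100, plus strand), Il6 (chr5:30012964-30013113, plus strand) and Nfkbia (chr12:55492648-55492797, minus strand), all on GRCm38.p6. The 3 chemokine genes share the same 11 capitals, at 71, 97 and 73 bases before the start.
Cxcl1: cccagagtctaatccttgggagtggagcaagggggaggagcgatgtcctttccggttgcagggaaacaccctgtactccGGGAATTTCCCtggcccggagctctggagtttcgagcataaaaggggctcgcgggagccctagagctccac
Cxcl2: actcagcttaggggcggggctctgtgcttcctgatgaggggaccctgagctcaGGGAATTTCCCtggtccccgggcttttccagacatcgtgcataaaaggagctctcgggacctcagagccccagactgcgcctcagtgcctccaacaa
Cxcl3: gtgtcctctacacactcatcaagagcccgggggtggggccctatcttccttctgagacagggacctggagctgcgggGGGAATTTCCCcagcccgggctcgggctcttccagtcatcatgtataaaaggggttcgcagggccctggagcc
Il6: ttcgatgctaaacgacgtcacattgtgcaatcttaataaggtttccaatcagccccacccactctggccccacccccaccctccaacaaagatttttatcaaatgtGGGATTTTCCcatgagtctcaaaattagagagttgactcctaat
Nfkbia: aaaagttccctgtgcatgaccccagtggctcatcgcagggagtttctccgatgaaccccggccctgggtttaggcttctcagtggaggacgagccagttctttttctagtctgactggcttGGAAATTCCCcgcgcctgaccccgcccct

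For the interferon response genes Ifit1 (chr19:34640739-34640888, plus strand) and Isg15 (chr4:156200819-156200968, minus strand), the capitals mark the interferon element on either strand, which occurs at 2 places in Ifit1 and as overlapping copies in Isg15. For the matrix metalloproteinase gene Mmp3 (chr9:7445672-7445821, plus strand) they mark the AP-1 site. The last 2 genes fell: Ctsa (chr2:164833623-164833772, plus strand) and Mcoln1 (chr8:3500369-3500518, plus strand) carry the CLEAR element, in capitals. Ctsa has 2 windows, of which 1 holds the element and is printed. The windows are on GRCm38.p6.
Ifit1: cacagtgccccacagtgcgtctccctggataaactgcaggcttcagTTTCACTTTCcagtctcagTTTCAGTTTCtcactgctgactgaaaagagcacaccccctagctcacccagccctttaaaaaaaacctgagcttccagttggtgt
Isg15: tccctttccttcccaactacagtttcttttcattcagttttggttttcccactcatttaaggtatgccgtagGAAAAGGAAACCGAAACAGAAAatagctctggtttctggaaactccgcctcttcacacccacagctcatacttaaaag
Mmp3: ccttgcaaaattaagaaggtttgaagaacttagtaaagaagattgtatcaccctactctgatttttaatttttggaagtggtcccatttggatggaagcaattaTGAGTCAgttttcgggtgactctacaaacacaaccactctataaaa
Ctsa: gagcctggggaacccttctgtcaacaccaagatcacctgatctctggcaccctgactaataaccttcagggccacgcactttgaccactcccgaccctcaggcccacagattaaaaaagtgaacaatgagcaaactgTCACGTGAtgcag
Mcoln1: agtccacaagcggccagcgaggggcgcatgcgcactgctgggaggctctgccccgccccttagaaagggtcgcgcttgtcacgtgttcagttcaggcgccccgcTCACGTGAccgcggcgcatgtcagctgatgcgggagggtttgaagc

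Many feedback inhibitors of signalling rose. Of 23 SOCS, DUSP and TRAF regulators, 12 rose and 0 fell, with a median of 1.37. Socs3, the inhibitor of interleukin-6 signalling, was at 48.5 and 30.1 RPKM untreated and at 288 and 613 with LPS (3.43, adjusted p = 0.0107), Socs1 at 0.817 and 2.39 and at 33.0 and 149 (4.84), and the adaptor Traf1 at 8.27 and 7.24 and at 58.8 and 113 (3.24). Tnfaip3, the gene of the ubiquitin-editing enzyme A20, rose by 2.40 (24.4 and 26.7 against 79.3 and 244), its partner Tnip1 by 2.51, and the kinase phosphatases Dusp16 by 2.22, Dusp5 by 1.73 and Dusp6 by 1.57. Among 17 regulators of mRNA decay 3 rose, the endonuclease Zc3h12a by 2.19 (17.4 and 17.4 against 55.9 and 123), its relative Zc3h12c by 1.43 and N4bp1 by 1.29, and the median was 0.05. The count of 12 rises went to 1 without WT untreated A, to 1 without WT LPS B and to 2 without WT untreated B.

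Interferon response genes were higher in almost all members. Of 46 type I interferon response genes 17 rose and 0 fell (25 rose with the replicate block), 41 had both LPS libraries above both untreated ones, and the median was 1.25, or 0.84 to 1.63 with 1 WT library left out. Isg15, a ubiquitin-like modifier, was at 9.18 and 10.3 RPKM and at 67.8 and 202 (3.46, SE 0.46, adjusted p = 0.0149). The DNA-sensing family member Ifi205 was at 2.36 and 1.11 and at 28.8 and 39.8, Oasl1 at 0.432 and 1.08 and at 6.60 and 15, and the chaperone Rtp4 at 9.32 and 7.48 and at 49.6 and 54.6. The factor Irf7, which amplifies interferon production, rose by 1.83 (16.9 and 16.3 against 41.5 and 90.6). Ifnb1 itself lay below the level filter. Families of near-identical genes such as these, the guanylate-binding proteins and the Bcl2a1 genes may share reads, so values of single members are uncertain.

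Genes that respond most to interferon gamma differed between the LPS libraries. Ifng, the gene of interferon gamma itself, was at 0 and 0.173 RPKM untreated, at 0.733 in LPS A and at 81.2 in LPS B. All 14 measured guanylate-binding proteins and immunity-related GTPases, which attack vacuoles of intracellular microbes, had a higher value in LPS B than in LPS A, and 12 of them by more than 1 on the log2 scale. Over all 11272 loci these counts were 2603 and 318. Untreated B was above untreated A in all 14 members too, by more than 1 in 5, against 5845 and 280 of all loci. The median difference of B over A was 1.71 with LPS and 0.78 without, against -0.30 and 0.01 over all loci. Iigp1 was at 0.320 and 1.38 untreated and at 8.76 and 265 with LPS, Irgm1 at 26.9 and 29.4 and at 46.5 and 293, and Gbp5 at 2.47 and 8.32 and at 97.0 and 309. The chemokine Cxcl9 had 1.30 and 36.2 with LPS, Cxcl10 16.5 and 547, and Irf1 133 and 564.

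With this spread, 0 of the 14 were called in limma without the block and 12 with it (11 at an unadjusted p under 0.05), although 13 lay higher in both LPS libraries and the median change was 2.73 (3.02 with median-ratio scaling). Irf1 (2.05, adjusted p = 0.152), Cxcl9 (3.19, 0.133) and Cxcl10 (5.94, 0.0651) likewise passed with the block only. Of the type I list, 10 of 46 members were higher in LPS B than in LPS A by more than 1 on the log2 scale (318 of 11272 over all loci), while Isg15, Ifit1 and Rtp4 were within 3 times. T and NK cell markers summed to 24.6 and 39.9 RPKM untreated and to 21.5 and 28.4 with LPS, with 7 of 11 measured and the NK receptor gene Ncr1 at 0 in LPS A and 0.73 in LPS B. In the KO libraries with LPS, Ifng was at 0 in A and 42.5 in B. The part of these cells in the difference was not tested.

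**Figure D3:**
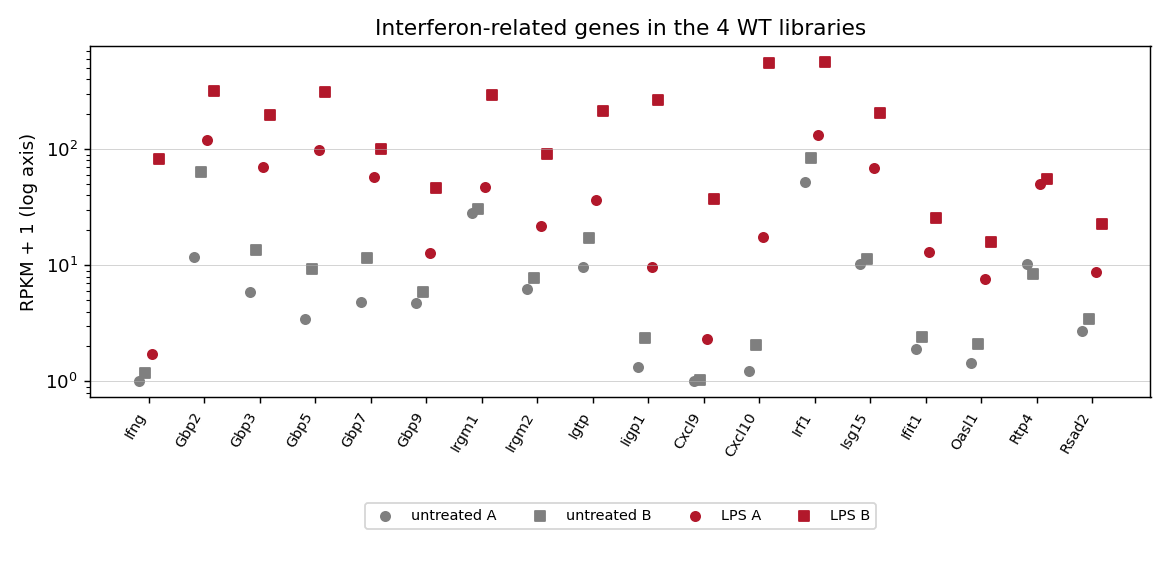
RPKM + 1 on a log axis for Ifng and 17 interferon-related genes in the 4 WT libraries, untreated in grey and LPS in red, circles for A and squares for B. For Ifng, Iigp1, Cxcl9 and Cxcl10 the red square stands far above the red circle, and for Rtp4 both red points nearly coincide.

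Several antimicrobial effector genes rose, some to very high levels. Lcn2, which withholds iron from bacteria, was at 0.798 and 2.40 RPKM untreated and at 126 and 271 with LPS (6.23, SE 0.71, adjusted p = 0.0099). Nos2, the inducible nitric oxide synthase, was at 0.411 and 0.757 and at 18.4 and 135, and Irg1, the itaconate-producing enzyme, at 37.2 and 129 and at 957 and 2120. Of 26 microbicidal and metal-withholding genes 6 rose and 0 fell, among them the metallothionein Mt2 (5.86 and 11.8 against 65.4 and 210) and the zinc importer Slc39a14 (5.60 and 6.82 against 39.0 and 66.0). Saa3, a serum amyloid A protein, was the transcript with the largest gain in RPKM, from 6749 and 9842 to 38570 and 47100, which is 1.23% and 1.76% of all RPKM untreated and 7.03% and 8.40% with LPS. It passed only with the replicate block (2.39, adjusted p = 0.0865 without it). The loci called higher took 1.71% and 1.86% of RPKM untreated and 8.02% and 17.7% with LPS, and those called lower 4% and 3.71% and then 1.24% and 0.789%.

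Several genes of arginine use and amino acid supply rose. The cationic amino acid transporter Slc7a2 was at 20.7 and 27.5 RPKM untreated and at 484 and 1178 with LPS (4.93, SE 0.44, adjusted p = 0.00546), and its relative Slc7a1 at 7.68 and 9.13 and at 31.0 and 33.2 (1.82). Arginase, Arg1, was at 56.0 and 48.2 and at 325 and 425. Of 18 genes of arginine, polyamine and tryptophan metabolism, 4 rose and 0 fell (7 and 2 with the replicate block). That list had 9 higher and 9 lower members and a median of 0.37. Of 18 amino acid transporters and genes of the integrated stress response, which ATF4 drives when amino acids are short, 8 rose and 0 fell (11 with the replicate block), with a median of 1.52. They were the leucine transporter Slc7a5 (7.59 and 9.45 against 58.5 and 49.3; 2.53, SE 0.19, adjusted p = 0.00346), the asparagine synthetase Asns (21.2 and 39.8 against 141 and 184), Trib3, Chac1, Sesn2, the serine synthesis enzyme Phgdh and the mitochondrial folate enzymes Shmt2 and Mthfd2. Here the A libraries changed as much as the B libraries, with list medians of 1.62 and 1.36. Atf4 itself was at 166 and 193 and at 308 and 352 (0.88, adjusted p = 0.0676, passing with the block).

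Eicosanoid genes moved both ways. Of the prostaglandin branch 2 genes rose: the cyclooxygenase Ptgs2 was at 18.3 and 9.65 RPKM untreated and at 386 and 1690 with LPS, and the prostaglandin E synthase Ptges at 39.2 and 121 and at 632 and 820. The phospholipase Pla2g4a, which releases arachidonate for both branches, rose from 45.1 and 46.8 to 158 and 228. In the leukotriene branch Alox5 and Lta4h fell, with Alox5 at 22 and 17.8 and at 4.27 and 3.51 (-2.09, adjusted p = 0.019) and the leukotriene A4 hydrolase Lta4h at 44.4 and 42.4 and at 20.9 and 16.7, as did the prostaglandin D synthase Hpgds. Thus 3 of 19 members rose and 3 fell, and the median was -0.69. Of 19 nucleotide and purine genes 4 rose and 3 fell (4 and 5 with the replicate block). The adenosine receptor Adora2b rose by 3.14 (2.47 and 2.75 against 30.4 and 31.1) and Adora2a by 1.28, while the ATP-gated channel P2rx7 (33.3 and 44.9 against 10.1 and 8.94) fell by 1.92 on the log2 scale. A locus that carries both F630111L10Rik, annotated as a pseudogene, and P2ry14 fell by 1.53 on the log2 scale and cannot be credited to either.

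Lysosomal genes were lower nearly throughout. Of 50 V-ATPase subunits and lysosomal proteins, 12 fell and 0 rose (37 fell with the replicate block, and 0 to 25 with 1 library left out), 48 had both LPS libraries below both untreated ones, and the median was -1.10, against -0.25 over all loci. With median-ratio scaling, which brings the median of all loci to about 0, the list's median was -0.82 and 8 members fell. Summed over the list, RPKM went from 31030 and 24320 untreated to 14250 and 7858 with LPS. Gpnmb, a glycoprotein of lysosomes and lipid-laden macrophages (chromosome 6, 48986517 to 49020928, plus strand), was at 1302 and 991 and at 121 and 73.2 (-3.58, SE 0.71, adjusted p = 0.0334). The proton pump subunit Atp6v0d2 fell from 82.6 and 93.3 to 12.3 and 4.29. Engase, a glycosidase of the cytosol that frees sugars from glycoproteins, was also on the list and fell from 25.8 and 29.7 to 1.34 and 0.177 (-4.11). Without it 11 of 49 members fell and the median was -1.08. The acid lipase Lipa (385 and 681 against 177 and 98.5), the carboxypeptidase Ctsa (444 and 390 against 186 and 115) and the calcium channel Mcoln1 (39.6 and 39.8 against 17.8 and 9.50) fell. The most abundant members, the protease Ctsd (7009 and 5318 against 2778 and 1266) and the saposin precursor Psap (5080 and 3940 against 1787 and 695), had the same order of libraries and passed with the block, at adjusted p of 0.0653 and 0.0649 without it.

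Genes of fatty acid use were lower too. All 27 measured genes of fatty acid oxidation and PPAR targets had a negative change, 4 fell (15 with the replicate block), and the median was -1.03, or -0.74 with median-ratio scaling. Without WT LPS A the median was -1.49 with 19 falls, and without WT LPS B -0.62 with 0. The fatty acid carrier Fabp5 was at 2091 and 1053 RPKM untreated and at 139 and 146 with LPS (-3.37, SE 0.43, adjusted p = 0.0134), and the dehydrogenase Hadh at 21.2 and 21.0 and at 6.14 and 2.82. The carnitine transferase Cpt1a had -1.77 (35.8 and 33.2 against 16.5 and 5.20), and passed with the block only. In cholesterol handling 2 genes rose and 4 fell of 21 (2 and 8 with the block). Ch25h, which makes the antiviral 25-hydroxycholesterol, rose by 3.92 (0.632 and 0.227 against 10.9 and 37.6) and the exporter Abca1 by 1.56 (63.4 and 36.1 against 151 and 137). The sterol hydroxylase Cyp27a1 (6.96 and 7.05 against 0.776 and 0.234) and the esterifying enzyme Soat1 (121 and 108 against 44.8 and 18.8) fell. Of 22 genes of sterol and fatty acid synthesis, Dhcr7, which makes cholesterol from its precursor, and Fdft1, which makes squalene, fell by 1.89 and 1.20 on the log2 scale. That list had 11 higher and 11 lower members and a median of -0.05, or 0.23 with median-ratio scaling, where 1 gene fell.

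Mitochondrial genes were mostly lower, by small amounts. On the list of 26 tricarboxylic acid cycle genes only Idh1 was called, and it encodes the cytosolic isocitrate dehydrogenase, so no mitochondrial member was called. Idh1 (chromosome 1, 65205190 to 65233053, minus strand) was at 243 and 228 RPKM untreated and at 43.3 and 23 with LPS (-2.86, SE 0.34, adjusted p = 0.0107). Its mitochondrial relative Idh2 went from 23.1 and 25.5 to 8.35 and 2.37 (adjusted p = 0.052), and 10 members fell with the replicate block. Succinate dehydrogenase subunits were lower by 0.70 to 1.07 on the log2 scale and passed with the block: Sdha had -0.70, Sdhb -1.07, Sdhc -0.74 and Sdhd -1.05. Of 70 oxidative phosphorylation subunits 1, Ndufb10, fell (28 with the block), and 63 had both LPS libraries lower, against 45.9% of all loci. The median was -0.71, or -0.41 with median-ratio scaling, where 0 were called, and -0.46 without WT LPS B. Ribosomal protein genes had 0 of 75 called in limma, also with the block, 7 lower at an unadjusted p under 0.05, and a median of -0.38, or -0.08 with median-ratio scaling. In 72 of the 75 both LPS libraries lay below both untreated ones, so this order was at least as common there as among oxidative phosphorylation subunits. Glycolysis genes had no common direction, with 2 rises, 2 falls and a median of -0.07 over 28 genes, which turned to 0.22 with median-ratio scaling. The vesicular glucose transporter Slc2a6 rose (44.3 and 68.1 against 220 and 196), and Aldoc fell (7.13 and 6.66 against 1.20 and 2.10).

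**Figure D4:**
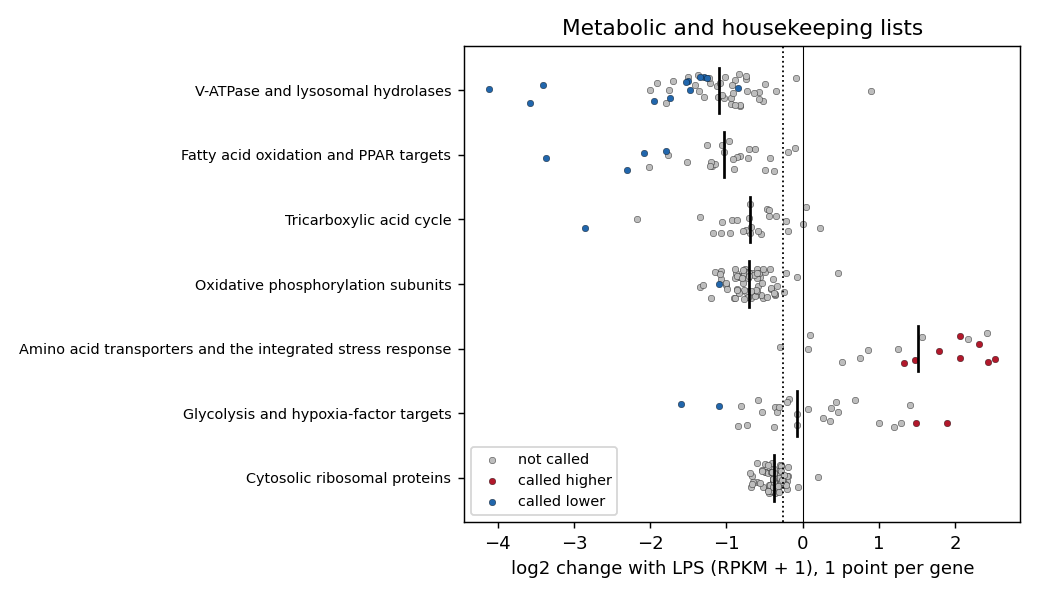
Log2 change with LPS (RPKM + 1, x axis) of each measured gene in 7 lists (rows), called genes in colour, with a black bar at the list's median and the dotted line at the median of all loci (-0.25). The lysosomal list spreads to the left down to -4.11 (Engase, an enzyme of the cytosol, with Gpnmb next at -3.58) and the fatty acid list to -3.37, and genes of amino acid supply lie to the right with a median of 1.52.

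Few genes for taking up dead cells and debris were called. Of 30 scavenger and uptake genes 1 rose and 2 fell (4 and 10 with the replicate block), and 14 had both LPS libraries below both untreated ones, a share close to the 45.9% of all loci. The median was -0.61. It was -0.30 when WT LPS B was left out, and -0.32 under median-ratio scaling. The lipid and apoptotic cell receptor Trem2 was at 197 and 163 RPKM untreated and at 52.4 and 12.5 with LPS (-2.75, adjusted p = 0.0478), and Gas6, the bridge between dead cells and the receptor MerTK, at 28 and 8.32 and at 1.92 and 0.165. Olr1, the receptor for oxidised lipoprotein, rose (11.5 and 27.1 against 97.7 and 173). Of 25 complement and coagulation genes 3 rose and 1 fell (5 and 3 with the block). The rises included tissue factor F3 (12.8 and 7.73 against 66.5 and 205) and the protease inhibitor Serpinb2 (764 and 577 against 3752 and 6914). The anticoagulant receptor Thbd fell (22.4 and 12.8 against 3.05 and 0.486).

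At the surface and in the matrix, Cd274, which encodes the checkpoint ligand PD-L1, was at 32.2 and 42.6 RPKM untreated and at 197 and 337 with LPS (2.76, SE 0.30, adjusted p = 0.0099). The co-stimulators Cd40 (11.7 and 12.5 against 51.8 and 133) and Cd80 (15.9 and 18 against 49.6 and 91.1) rose, and 4632428N05Rik, the gene of the checkpoint protein VISTA, fell (119 and 105 against 22.5 and 7.25). Of 18 co-stimulation and checkpoint genes 6 rose and 1 fell (11 and 2 with the block). Few antigen presentation genes were called: 0 of 19 class I genes were called in limma (4 higher with the replicate block and 4 at an unadjusted p under 0.05), and of 12 class II genes 1, the thiol reductase Ifi30, fell (577 and 579 against 161 and 159; -1.84, adjusted p = 0.0152). H2-Ab1, a class II chain, was at 138 and 124 and at 312 and 209 (0.96, adjusted p = 0.181). Matrix genes had 5 rises and 1 fall of 24, but 7 rises and 6 falls with the replicate block, and medians of 0.88 in A and -0.13 in B. Among them were Mmp3 at 3.64 and 1.25 and at 95.3 and 290, the hyaluronan synthase Has1 at 0.330 and 0.0919 and at 5.76 and 17.9, the inhibitor Timp1 higher (8.03 and 14.8 against 47.0 and 96.9) and the inhibitor Timp2 lower (184 and 139 against 41.4 and 16.4). Survival genes of the Bcl2a1 family rose, Bcl2a1d from 4.02 and 5.70 to 63.9 and 99.6, as did Cflar, the inhibitor of caspase-8, by 1.81, and 7 of 30 survival genes were called.

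Marcksl1, a membrane-linked actin regulator, was at 57.5 and 70.3 RPKM untreated and at 597 and 829 with LPS (3.45, SE 0.27, adjusted p = 0.00346). The adhesion ligand Selplg fell (40.7 and 41.8 against 16.1 and 6.19). Further rises outside the lists, picked after their values were seen, include the amplifying receptor Trem1 (0.589 and 0.215 against 20.0 and 41.1), the niacin receptor Hcar2 (6.85 and 11.6 against 76.4 and 357), the fatty acid receptor Gpr84 (3 and 10.4 against 74.2 and 110), the NAD-consuming enzyme Cd38 (28.1 and 37.3 against 276 and 308) and the NF-kB activator Malt1 (34.7 and 37.7 against 158 and 289). Falls picked in the same way are the lysosomal cation pump Atp13a2 (66.9 and 82.9 against 15.9 and 5.62) and the purine oxidase Xdh (126 and 104 against 27.3 and 8.50). The lists hold 134 of the 357 called rises and 47 of the 354 called falls.

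Identity genes of resident macrophages were mixed. Gata6 was at 9.13 and 8.74 RPKM untreated and at 4.21 and 4.04 with LPS (-0.95, SE 0.24, adjusted p = 0.0609; 0.0438 with the replicate block). Of 25 genes of large peritoneal macrophages 1 rose, Serpinb2, and 1 fell, the retinoic acid receptor Rarb (2.72 and 1.33 against 0.232 and 0.212). The call of Rarb (adjusted p = 0.0448) was lost in all 8 fits without 1 library and with median-ratio scaling, where the list had 0 falls in limma. There were 7 falls under the block, among them the complement receptor Vsig4 (72.4 and 47.7 against 14.6 and 6.42) and Tgfb2 (11.3 and 4.97 against 0.941 and 0.960). Of 15 alternative activation markers 3 rose and 0 fell. They were Arg1, the receptor subunit Il4ra (22.6 and 21.9 against 71.6 and 86.1; 1.77, adjusted p = 0.0099) and Socs2. The mannose receptor Mrc1 was at 6.52 and 1.94 and at 3.65 and 3.29, with overlapping groups. The growth factor receptor Csf1r also overlapped, at 585 and 948 and at 645 and 356.

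Markers of other cell types that changed were few. Hdc, which makes histamine in mast cells and in activated macrophages, rose from 9.32 and 3.12 RPKM to 85.3 and 310 (4.65, adjusted p = 0.0236). Cpa3, a protease of mast cells, was at 0.0830 and 29.6 and at 8.24 and 29.9, so the groups overlapped. Of 6 measured neutrophil markers 3 had a positive change and 3 a negative one. Only the antimicrobial peptide Camp was called, as a rise (0 and 3.72 against 13 and 27.5). With the replicate block 3 rose and 1 fell, as many as at an unadjusted p under 0.05 in limma. Ngp, Elane and Mpo were at 0 in all 4 libraries and Ltf at 0 to 0.07. The neutrophil markers summed to 477 and 313 untreated and to 275 and 236 with LPS. The proteoglycan Dcn of fibroblasts was called higher (1.04 and 3.46 against 9.05 and 8.83, limma adjusted p = 0.0477), but the call was lost in each fit without 1 library. Col1a1 was at 0.44 and 4.13 untreated and at 1.55 and 3.92 with LPS. The part of other cells in these changes was not tested.

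**Figure D5:**
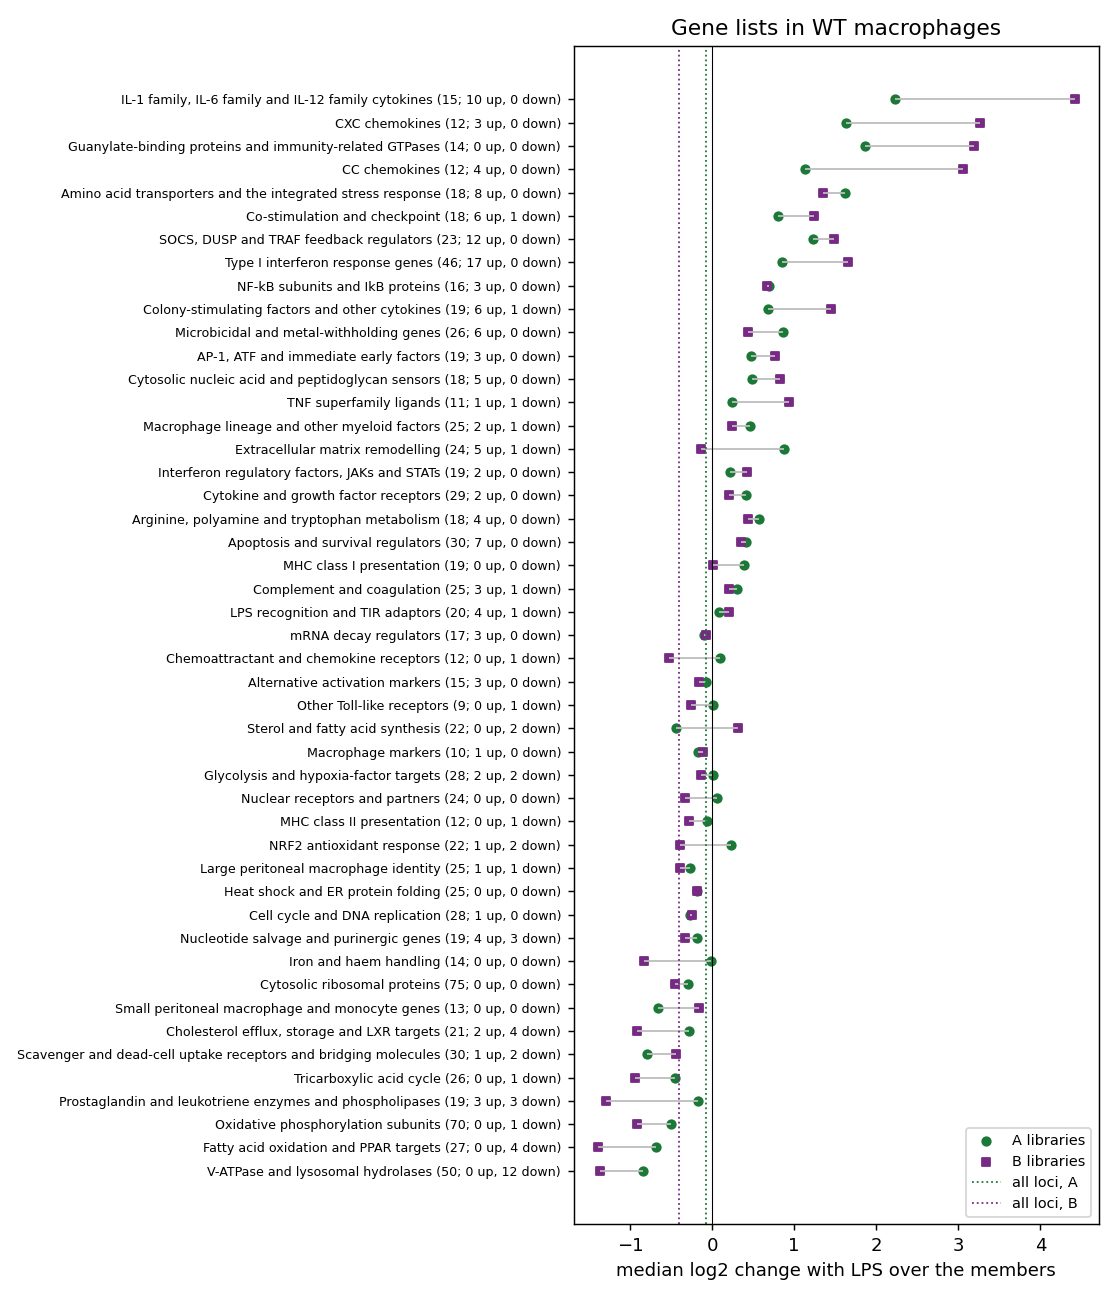
Median log2 change with LPS (x axis) over the members of 47 gene lists (rows, with the number measured and called up or down), circles for the A libraries and squares for the B libraries, with dotted lines at the medians of all loci (-0.08 in A and -0.41 in B). Cytokine, chemokine and interferon lists reach further right in B than in A, the lysosomal list lies furthest left in A (-0.84) and the fatty acid list furthest left in B (-1.39).

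Med1 itself was at 21.7 and 24.8 RPKM untreated and at 24.7 and 21.6 with LPS in WT. In KO it was at 17.6 and 23.4 and at 24.4 and 20.3, so its RNA level overlapped between the genotypes. The test of whether the response differed in KO, on the 4 libraries of each genotype, called 4 of 11272 loci (0.0355%). These were Arg1 and the small RNA loci Mir1894, Mir3473e and Mir5133. Each small RNA locus had values above 0 in a single group. For Mir1894 this was KO untreated, at 48.55 and 93.75 RPKM, and for the others WT untreated. At WT values of 56.0 and 48.2 RPKM untreated and 325 and 425 with LPS, Arg1 had KO values of 22.8 and 36.9 untreated and 11.5 and 12.4 with LPS, a difference in response of -4.03 (SE 0.38, adjusted p = 0.0284). It passed in 5 of 16 alternative fits, over which it was -4.37 to -3.69 with adjusted p of 0.0159 to 0.246. The WT and KO responses were 5.85 and 5.67 for Upp1, 4.27 and 4.41 for Cish, and 3 and 3.50 for Cdc42ep2. Marcksl1 had 3.45 and 3.30, and none of these genes was called as different. Mir5133 and Mir3473e, listed above with Upp1, Cish and Cdc42ep2 as keeping their WT call, were among the loci called as different. Tnf had 3.35 in WT and 6.15 in KO, a difference of 2.81 with a standard error of 0.98 that did not pass. A difference that misses the threshold in 2 libraries per group does not show that the responses were alike.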

How the data were processed

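Total RNA was sequenced from 8 libraries, 2 in each of 4 groups. The authors deposited 1 RPKM value per locus and library; bcl2fastq, TopHat2 2.0.14, Cufflinks 2.2.1 and mm9 are named, without roles, per the submitters' processing notes. The annotation, strandedness, filters and read counts are not stated in the sources used here. Thus Cufflinks may have split reads between near-identical genes, and overlapping or antisense genes cannot be told apart.

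Of 24192 lines, 457 repeat a locus, which left 23735 loci, of which 340 carry several symbols. The 11272 loci that reached 1 RPKM in 2 or more libraries were tested on log2(RPKM + 1) with limma 3.58.1 in R 4.3.3 over all 8 libraries, 1 mean per group, a variance trend, two-sided, with Benjamini-Hochberg adjustment over all loci; the fit was tested on simulated data. Fold changes are on this log2 scale. Depth was estimated from the steps of low RPKM values at 3006 loci with no value above 0.5 RPKM. At 95.1% of these loci all nonzero values, scaled for relative depth, were whole multiples of a step within 0.1 read plus 0.02 per read. The step, taken as 1 read, was the smallest value of the locus or a simple fraction of it, whichever fitted, which makes a fit easier to reach. The deepest library's estimate had quartiles of 12.6 and 14.8 M reads, so the depths are approximate, and no count test was run. Groups came from the labels. Deviations from the group means correlated by letter in all 6 pairs of groups (r 0.20 to 0.41), so the letters were taken to pair the samples, though the labels do not say what a letter stands for, and the letter served as the replicate block in an alternative fit. Other alternatives were the pseudocount, the filter, median-ratio and quantile scaling, no variance trend, the 4 WT libraries alone and leaving out each library.

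The 4 libraries and the gene lists were chosen with earlier results of these data known. Genes are named by rule: the 15 largest called rises and falls at 5 RPKM or more, up to 4 called members per list, and a fixed set of receptors, cytokines and identity genes. Others were picked after their values were seen. Lists are described by counts and medians. Promoter letters came from RefSeq on GRCm38.p6, another build than the mm9 of the deposited values. Positions are mm9, from a GENCODE annotation matched by gene symbol. Some items are not reported here.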

Additional observations from a re-analysis of the deposited data

Results flagged for a closer look

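The response of Arg1, the gene of arginase, to LPS differed between the genotypes by a test of the difference itself. It rose in WT, from 56.0 and 48.2 RPKM to 325 and 425, and was at 22.8 and 36.9 and then at 11.5 and 12.4 in KO. The KO response minus the WT response was -4.03 on the log2 scale (limma, SE 0.38, adjusted p = 0.0284), and each of the 2 letters showed that direction. The size held in the 16 alternative fits (-4.37 to -3.69), but the call held in 5 of them: it was lost with a pseudocount of 0.1 RPKM (adjusted p = 0.0587), a filter at 5 RPKM (0.0536), no filter (0.0999), median-ratio (0.13) or quantile scaling (0.0653), and without any 1 of the WT libraries or the KO LPS libraries (0.0679 to 0.246).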

How the results depend on the processing

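With no filter on low values 170 loci were called higher and 100 lower, with the 4 WT libraries alone 90 and 40, and with the letter as a replicate block 644 and 1174. Leaving out 1 library gave 6 to 525 higher calls, 3 to 1717 lower calls and 1 to 7 calls of a difference between KO and WT. That last count was 0 with a pseudocount of 0.1 RPKM and 0 with a filter at 5 RPKM, so the call of Arg1 was lost in both. Other pseudocounts, scalings and filters kept the counts within 1.5 times. Median-ratio scaling moved the median of all loci by 0.25, from -0.25 to about 0, so each log2 change is read against that shift. The sign turned for 4 named genes, none called. Pf4 ranged from -0.39 to 1.51 over the fits without 1 library, with the negative values without WT untreated A (-0.39) or WT LPS B (-0.24). Med1 had 0.28 with median-ratio scaling, 0.17 with quantile scaling, and -0.097 to 0.091 without 1 library. Il10 had -0.018 with a pseudocount of 5 RPKM and -0.62 to 0.64 without 1 library (-0.35 without WT LPS B). Mrc1 had 0.16 with median-ratio scaling, 0.22 with quantile scaling and -0.75 to 0.61 without 1 library. Of 157 named genes, 132 were called and 5 kept the call in every fit without 1 library. With the replicate block 11 named genes gained a call and the other 146 kept theirs as it was, so the paired fit changed no other call. The cause of these shifts was not tested. Depth of 6.84 to 11 M reads limits what can be said of genes under about 1 RPKM.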
